A study of Mus musculus with 18 samples.

Results

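Caveolae are flask-shaped pits of the plasma membrane, and the 7 genes described here encode their coat proteins and the diaphragm protein that spans their necks in endothelium. The genes are Cav1, Cav2, Ptrf, Sdpr, Prkcdbp, Ehd2 and Plvap, and they were taken by symbol from tables of 23238 gene symbols. They were chosen by their CPM levels in these same libraries, which were already known, so their values are given as a description and no p-value is attached to them.

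Caveolin-1 and caveolin-2 insert into the inner leaflet of the membrane as oligomers, and the cavins then coat the caveolin scaffold from the cytoplasm. EHD2 is an ATPase that holds the neck of the pit at the membrane, and PLVAP forms the thin diaphragms of endothelial caveolae, fenestrae and transendothelial channels. Caveolae are abundant in endothelial cells, adipocytes, smooth muscle cells and fibroblasts, where they buffer membrane tension and gather signalling receptors, whereas diaphragms with PLVAP are best known from blood capillaries of the gut and endocrine organs.

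RNA was sequenced from the 3′ end in 18 libraries of cells sorted from the small intestine of adult C57BL/6J mice. Intestinal stromal cells (IntSCs) gave 6 WT and 5 KO libraries, and lymphatic endothelial cells (LECs) gave 4 WT and 3 KO libraries. The sort described in the study took LECs of the small intestine. These include LECs of lacteals, the lymphatic capillaries of the villi, but the sort was not limited to them. Mice of all 4 groups carried CreERT2, a recombinase activated by tamoxifen, driven by Pdgfrb and a Tomato reporter (genotype PDGFRb+-CreERT2-Tomato+), and KO mice had, in addition, floxed alleles of both genes (Lats1f/f and Lats2 f/f). LATS1 and LATS2 are Hippo pathway kinases that hold the transcriptional co-activators YAP and TAZ in check. Pdgfrb is active in fibroblasts, smooth muscle cells and pericytes, so the LECs of KO mice came from a gut in which the Cre driver acts in the surrounding stroma. The labels number the libraries of each group but do not say whether LECs and IntSCs with one number came from one mouse.

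Total counts ranged from 5361250 to 10549233 per library, and 3 counts, taken as the floor of detection, corresponded to 0.284 to 0.56 CPM (counts scaled to a common library total). All levels below are CPM with trimmed-mean (TMM) factors computed over the 18 libraries. The 3′ counts of the deleted genes could not check the genotype labels, because it is not given in the sources used here whether the deleted exons reach the counted end. Lats1 spanned 0 to 29.9 CPM in WT and 12.5 to 21.6 CPM in KO IntSCs, and Lats2 spanned 40.8 to 112 CPM in WT and 78.4 to 133 CPM in KO IntSCs. The cell type labels stood against their markers as follows. Summed CPM of 9 lymphatic endothelial markers was 341 to 749 in IntSCs and 10962 to 18744 in LECs, and that of 9 fibroblast and stromal markers was 7842 to 17224 in IntSCs and 327 to 2235 in LECs. Most of the lymphatic sum in IntSCs was Pdpn (means of 236 CPM in WT and 326 CPM in KO) and Nrp2 (128 and 172 CPM). Pdpn averaged 305 CPM in WT LECs, and Prox1 was at most 0.17 CPM in IntSCs. WT LEC 1 held the highest stromal sum among LECs, with the other LEC libraries between 327 and 682.

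The 7 genes lie at 6 places in the mouse genome (GRCm38.p6, which is mm10). Cav2 (chr6:17281185-17289130) and Cav1 (chr6:17306335-17341328) are neighbours on chromosome 6, with 17205 bases between them. Ptrf, now Cavin1, is at chr11:100956736-100970617, Sdpr, now Cavin2, at chr1:51289126-51302960, and Prkcdbp, now Cavin3, at chr7:105480616-105482197. Ehd2 is at chr7:15946963-15967535 and Plvap at chr8:71497753-71511806. Sdpr overlaps 9330175M20Rik, and Plvap overlaps Gtpbp3. How the counting used strand is not given in the sources used here, so reads of overlapping genes could not be told apart. The highest level of 9330175M20Rik was 5.45 CPM in IntSCs, with no read in any LEC library, and that of Gtpbp3 was 31.4 CPM.

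The RefSeq promoter table used here, with windows from 250 bases before to 50 bases after the start site, was matched for 5 of the 7 genes. The 4 printed here are those of Cav1, Cav2 and Sdpr, whose levels were far apart between the cell types, and of Ptrf, whose levels were not. Capitals mark the GC box, searched as GGGCGG on both strands, and the word GGAATG, bound by TEAD factors, the DNA-binding partners of YAP and TAZ, also on both strands. The windows are chr6:17306085-17306384 (plus strand) for Cav1, chr6:17280935-17281234 (plus strand) for Cav2, chr1:51288876-51289175 (plus strand) for Sdpr and chr11:100970568-100970867 (minus strand) for Ptrf, written from 5′ to 3′.
Cav1: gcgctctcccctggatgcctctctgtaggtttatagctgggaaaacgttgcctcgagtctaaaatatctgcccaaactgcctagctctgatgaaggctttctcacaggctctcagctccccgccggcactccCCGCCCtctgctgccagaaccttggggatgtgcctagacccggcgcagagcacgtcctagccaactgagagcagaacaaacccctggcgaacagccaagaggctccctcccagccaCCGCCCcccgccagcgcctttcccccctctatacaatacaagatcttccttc
Cav2: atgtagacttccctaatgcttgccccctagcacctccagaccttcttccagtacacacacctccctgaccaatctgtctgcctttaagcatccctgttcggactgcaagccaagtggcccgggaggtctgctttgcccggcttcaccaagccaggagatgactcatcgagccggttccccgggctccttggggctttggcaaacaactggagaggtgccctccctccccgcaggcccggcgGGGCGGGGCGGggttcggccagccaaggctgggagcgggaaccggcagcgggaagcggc
Sdpr: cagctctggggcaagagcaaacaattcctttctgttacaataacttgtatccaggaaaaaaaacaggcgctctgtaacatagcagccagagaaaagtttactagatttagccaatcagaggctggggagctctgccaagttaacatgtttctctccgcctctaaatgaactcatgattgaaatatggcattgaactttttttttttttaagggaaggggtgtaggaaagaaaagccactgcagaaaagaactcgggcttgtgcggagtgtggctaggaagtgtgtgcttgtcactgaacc
Ptrf: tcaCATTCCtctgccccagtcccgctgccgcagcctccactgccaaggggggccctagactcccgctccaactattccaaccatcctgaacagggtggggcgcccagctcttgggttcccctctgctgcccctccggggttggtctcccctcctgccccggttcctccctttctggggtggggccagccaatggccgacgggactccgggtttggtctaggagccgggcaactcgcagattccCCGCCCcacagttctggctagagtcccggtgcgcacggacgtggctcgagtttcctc
GC boxes were found in 35.7% of 32851 RefSeq promoter windows of the same length. Cav1 held 2 and Cav2 held 2 that overlap by 1 base, Ptrf held 1, Ehd2 held 2, and Sdpr held 0. These are the windows of the first start site listed. Cav1 and Ptrf each had a second one, which held 0 GC boxes for Cav1 and 1 for Ptrf. The TEAD word GGAATG was found in 14.7% of all windows and, among these genes, only in that of Ptrf. The study gives the shorter word GGAAT for TEAD, which was not counted here. That word, read on either strand, is also in the printed Sdpr window and in the window of the second Cav1 start site. Of other words searched on both strands, the ETS word CCGGAAG (8.86% of all windows) was in none of the 5 genes, and TATAAA (13.6%) was in the printed Cav1 window but not in that of its second start site. The Sdpr window was 43.3% G and C, below the median of 52.7% over all windows, whereas those of Cav1, Cav2 and Ptrf were 59.3%, 64.3% and 66.7%. These matches describe the printed letters and say nothing of whether a factor binds there.

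The first comparison asked how caveola genes differ between control LECs and control IntSCs. Cav1, Cav2 and Sdpr were each more than 10-fold higher in LECs, with ranges that did not overlap, while Ptrf, Prkcdbp, Ehd2 and Plvap had overlapping ranges. The cavins were thus split, with Sdpr on the side of the caveolins and Ptrf alike in both cell types (log2 fold change 0.09, SE 0.23). Prkcdbp lay between them (0.61, SE 0.25), and only WT LEC 2 was inside its IntSC range. In bulk libraries of sorted cells, fewer cells of a type and less RNA per cell cannot be told apart.

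**Figure D1:**
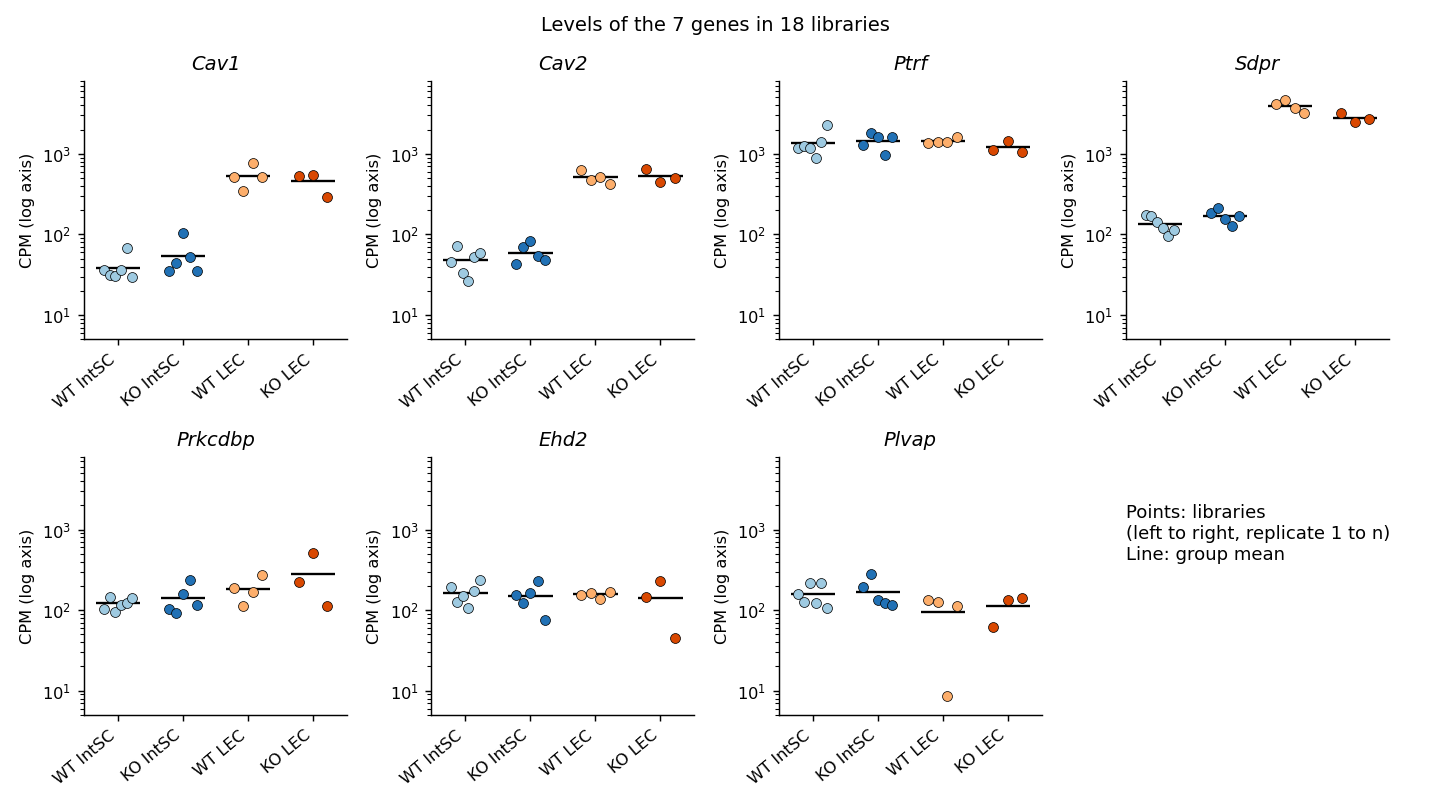
Level of each of the 7 genes (CPM, log axis) in the 18 libraries, by group; each point is a library and each line is the mean of its group. Cav1, Cav2 and Sdpr sit higher in all 7 LEC libraries than in all 11 IntSC libraries, and Plvap has 1 WT LEC library at 8.51 CPM.

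Cav1 encodes caveolin-1, the protein without which non-muscle caveolae do not form. In WT IntSCs its lowest, median and highest levels were 29.6, 33.4 and 68.7 CPM. In WT LECs Cav1 stood at 515, 349, 763 and 518 CPM in libraries 1 to 4. Every WT LEC library lay above every WT IntSC library, and the means were 536 ± 170 CPM (SD, n = 4) and 38.6 ± 15 CPM (SD, n = 6), a ratio of 13.9. The fitted log2 fold change was 3.79 (SE 0.29).

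Cav2 encodes caveolin-2, which pairs with caveolin-1 and depends on it to reach the cell surface. It spanned 26.4 to 72.1 CPM in WT IntSCs, with a median of 48.9 CPM. The WT LEC libraries held 625, 478, 512 and 427 CPM. These ranges were as far apart as those of Cav1, with means of 510 ± 83.9 CPM (SD, n = 4) and 48.1 ± 16.9 CPM (SD, n = 6) and a ratio of 10.6. The log2 fold change was 3.40 (SE 0.28).

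Among the cavins, Ptrf encodes cavin-1, which every caveola coat needs. Its levels in WT IntSCs were 879 CPM at the lowest, 1214 CPM at the median and 2261 CPM at the highest. WT LECs held 1371, 1422, 1419 and 1635 CPM, all inside the range of the IntSCs. The means were 1462 ± 118 CPM (SD, n = 4) in LECs and 1361 ± 474 CPM (SD, n = 6) in IntSCs, a log2 fold change of 0.09 (SE 0.23).

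Sdpr encodes cavin-2, a partner of cavin-1 that binds phosphatidylserine and helps to shape the membrane. It spanned 96.6 to 173 CPM in WT IntSCs, with a median of 131 CPM. WT LECs held 4201, 4653, 3751 and 3237 CPM. Of the 7 genes Sdpr had the largest ratio between the cell types, 29.1, with means of 3961 ± 607 CPM (SD, n = 4) and 136 ± 31.3 CPM (SD, n = 6) and a log2 fold change of 4.86 (SE 0.22).

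Prkcdbp encodes cavin-3, the cavin that binds protein kinase C delta. Its WT IntSC range was 95.4 to 145 CPM, with a median of 120 CPM. The WT LEC libraries held 187, 113, 170 and 272 CPM, so that 3 of 4 were above all IntSC libraries and WT LEC 2 was inside their range. The log2 fold change was 0.61 (SE 0.25). It was 0.37 without WT LEC 4 and 0.76 without WT LEC 2.

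Ehd2, the neck ATPase, spanned 106 to 239 CPM in WT IntSCs, with a median of 162 CPM. WT LECs held 156, 165, 138 and 169 CPM. The LEC values lay inside the IntSC range, and the log2 fold change was -0.08 (SE 0.25).

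Plvap, the diaphragm gene, spanned 105 to 216 CPM in WT IntSCs, with a median of 142 CPM. The WT LEC libraries held 132, 126, 8.51 and 114 CPM. In 3 of the 4 the level was inside the IntSC range, and WT LEC 3, with 91 reads of Plvap, was about an order of magnitude below the others. The log2 fold change of -0.73 (SE 0.52) was -0.35 without that library.

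Counting over these genes, 3 of 7 passed an adjusted p of 0.05 in edgeR's quasi-likelihood fit of all 12203 genes tested, all 3 higher in LECs, where 22.6% of genes passed in either direction and 10.3% as higher. The 3 genes whose ranges did not overlap, all higher in LECs, stood against 21.1% of all genes in either direction and 9.76% as higher. The median log2 fold change was 0.61 over the 7 genes and -0.04 over all genes. The same contrast was in view when the genes were chosen, so nothing is read from these counts.

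**Figure D2:**
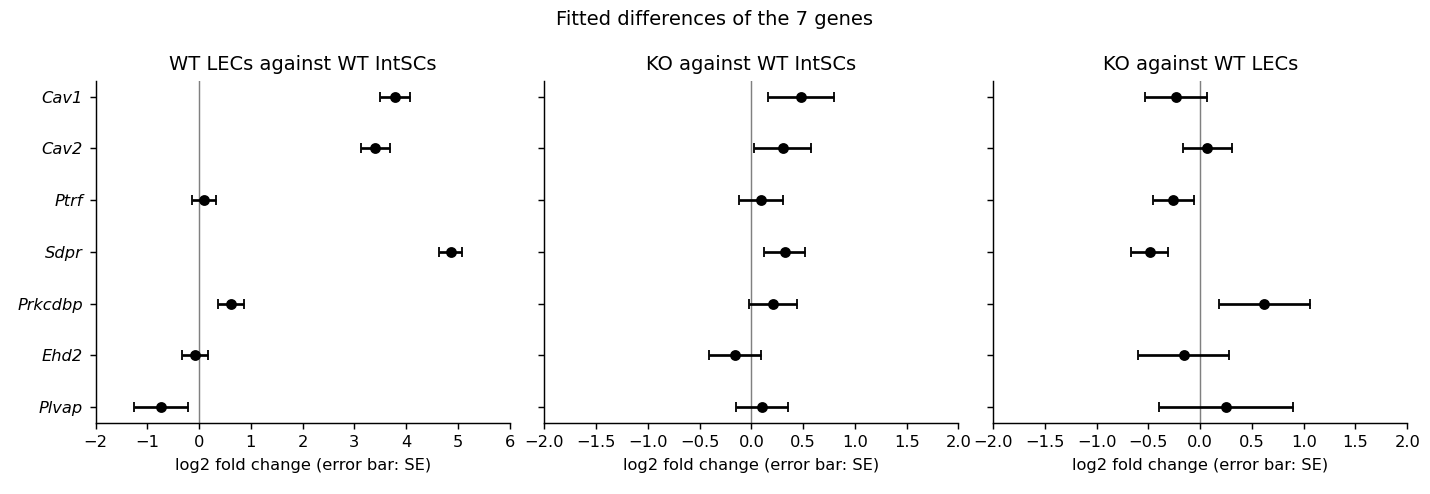
Fitted log2 fold change of each of the 7 genes (horizontal axis, with SE as error bar) between the cell types in WT mice and between KO and WT mice in each cell type; the first panel has a wider axis. Cav1, Cav2 and Sdpr stand at 3.40 to 4.86 in the first panel, and in the other panels the values lie between -0.49 and 0.62.

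The split between the cell types was present in KO mice as well. The mean of KO LECs was 8.41 times that of KO IntSCs for Cav1, 8.92 times for Cav2 and 16.5 times for Sdpr. In each of these genes the lowest KO LEC library was above the highest KO IntSC library. Ptrf, Ehd2 and Plvap had ratios of 0.832, 0.94 and 0.666 in KO mice, with overlapping ranges. Prkcdbp had a ratio of 2, with means of 283 ± 206 CPM (SD, n = 3) and 141 ± 58.5 CPM (SD, n = 5), and its ranges also overlapped.

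The second comparison asked what the deletion of Lats1 and Lats2 did to caveola genes in IntSCs, the cells in which the Cre driver is active. None of the 7 genes had separate ranges in KO and WT IntSCs, against 2.82% of the 12421 genes tested whose ranges did not overlap. By edgeR 0 of 7 were called, against 1.47% of all genes. The median log2 fold change was 0.21 over the 7 genes and 0.00 over all genes.

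Cav1 stood at 35, 44.4, 103, 52.2 and 35.4 CPM in KO IntSC libraries 1 to 5. Its mean was 54.1 ± 28.5 CPM (SD, n = 5) in KO and 38.6 ± 15 CPM (SD, n = 6) in WT, with a log2 fold change of 0.48 (SE 0.32). A single library on each side carried much of that spread. The value was 0.11 without KO IntSC 3, which held 103 CPM, and 0.72 without WT IntSC 5, which held 68.7 CPM. Cav2 was also highest in KO IntSC 3 among KO libraries, with 42.4, 70.2, 82, 54.5 and 48.7 CPM and a log2 fold change of 0.30 (SE 0.28).

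The cavins overlapped between the genotypes as well. Ptrf stood at 1296, 1793, 1617, 955 and 1610 CPM in KO IntSCs, a log2 fold change of 0.09 (SE 0.21). Sdpr stood at 184, 211, 156, 129 and 168 CPM, with 2 KO libraries above the highest WT library and a log2 fold change of 0.32 (SE 0.20). Prkcdbp, the third cavin, stood at 104, 91.8, 159, 236 and 115 CPM in the same libraries. Its log2 fold change of 0.21 (SE 0.23) was -0.04 without KO IntSC 4, the library with the highest level.

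Ehd2 was 155, 123, 161, 229 and 74.5 CPM in KO IntSCs, so KO IntSC 4 held the highest level of both Prkcdbp and Ehd2 in that group. The log2 fold change of Ehd2 was -0.16 (SE 0.25). Plvap was 193, 277, 134, 122 and 116 CPM, highest in KO IntSC 2, with a log2 fold change of 0.10 (SE 0.25), or -0.16 without that library.

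Since endothelium is rich in caveolae, the endothelial markers of the IntSC libraries are given beside them. Summed CPM of 10 markers of all endothelium was 436 to 604 in WT IntSCs and 600 to 1224 in KO IntSCs, and none of the 10 markers was at 0 throughout a group. On average most of that sum was Eng, Esam and Egfl7. Their means were 169, 158 and 111 CPM in WT and 159, 292 and 211 CPM in KO IntSCs. Esam averaged less in WT LECs, with 87.9 CPM, so the sum is not a measure of endothelial cells alone. Cdh5 averaged 10.4 CPM in WT and 19.3 CPM in KO IntSCs, and Cldn5 12.2 and 23.8 CPM. Pecam1, the CD31 antigen by which endothelial cells were removed from the IntSC sort, spanned 12 to 63.2 CPM in WT and 38.8 to 134 CPM in KO IntSCs. KO IntSC 2, with the highest sum (1224 CPM), held the highest Sdpr and Plvap of the IntSC libraries. KO IntSC 3, with the highest Cav1 and Cav2, had a sum of 934 CPM. The part of residual endothelial cells in the levels of these genes was not tested. The 6 adipocyte markers, from another cell type rich in caveolae, summed to 85.2 to 199 CPM in WT and 209 to 477 CPM in KO IntSCs, highest in KO IntSC 3. Most of that sum was Fabp4, which averaged 106 CPM in WT and 205 CPM in KO IntSCs, and Plin4, and Fabp4 was higher still in LECs, with 759 CPM in WT and 1155 CPM in KO. Of the defining adipocyte markers, Adipoq, Cidec and Lep were at 0 in all WT IntSC libraries and Lep in all KO IntSC libraries, with Adipoq and Cidec at most 0.833 and 0.238 CPM there.

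**Figure D3:**
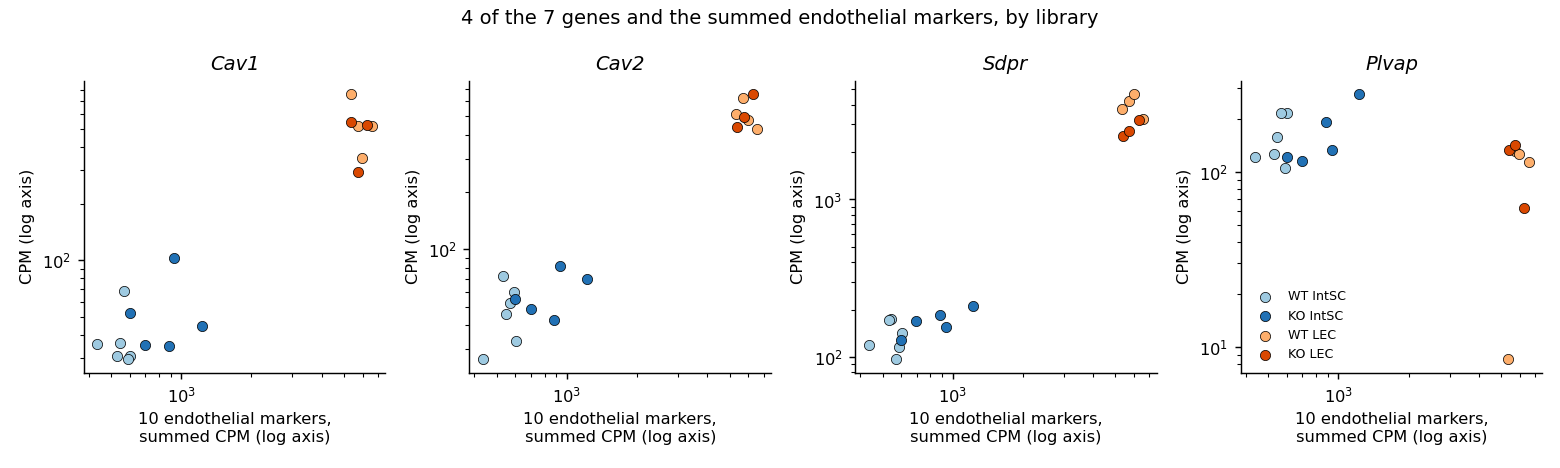
Level of Cav1, Cav2, Sdpr and Plvap (CPM, log axis) against the summed CPM of 10 endothelial markers (log axis), with 1 point for each library, coloured by group. The IntSC libraries lie between 436 and 1224 CPM of summed markers and the LEC libraries between 5334 and 6568 CPM, and Plvap is not higher in the LEC libraries. On average most of the sum in the IntSC libraries is Eng, Esam and Egfl7.

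The third comparison asked whether caveola genes of LECs differed when the stroma around them carried the deletion. Sdpr was the only one of the 7 genes with separate ranges, lower in all 3 KO libraries than in all 4 WT libraries, against 9.81% of the 10639 genes tested with separate ranges in either direction and 5.8% as lower. By edgeR 0 of 7 were called, against 0.0658% of all genes. On simulated counts this fit recovered 30.5% of genes given a log2 fold change of 2. A gene without a call may thus still have changed.

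Sdpr stood at 3181, 2512 and 2730 CPM in KO LECs, below the 3237 CPM of the lowest WT LEC library. The means were 2808 ± 341 CPM (SD, n = 3) in KO and 3961 ± 607 CPM (SD, n = 4) in WT, a ratio of 0.709 and a log2 fold change of -0.49 (SE 0.18). Leaving out each library in turn gave -0.58 to -0.40. Marker sums of other cell types also had separate ranges between KO and WT LECs. Stromal markers summed to 327 to 563 CPM in KO and 639 to 2235 CPM in WT, and leukocyte markers to 51.1 to 119 CPM and 140 to 357 CPM. Epithelial and Paneth markers summed to 42.5 to 174 CPM in KO and 3.93 to 28.3 CPM in WT, and adipocyte markers to 1141 to 1271 CPM and 678 to 992 CPM. Their part in the Sdpr values was not tested. The gap between the highest KO and the lowest WT library was small beside the spread within either group.

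The caveolins overlapped. Cav1 stood at 525, 545 and 295 CPM in KO LECs, a log2 fold change of -0.23 (SE 0.30) that was 0.01 without KO LEC 3. Cav2 stood at 653, 442 and 498 CPM, a log2 fold change of 0.07 (SE 0.24).

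Ptrf was 1116, 1463 and 1050 CPM in KO LECs, with 2 of 3 libraries below all WT LEC libraries and a log2 fold change of -0.26 (SE 0.20). Prkcdbp was 221, 512 and 114 CPM in those libraries. Its log2 fold change of 0.62 (SE 0.44) rested on KO LEC 2, being -0.12 without that library and 1.0 without KO LEC 3. Ehd2 was 145, 229 and 44.6 CPM, and its log2 fold change of -0.16 (SE 0.44) ranged from -0.70 without KO LEC 2 to 0.27 without KO LEC 3. KO LEC 2 was thus the highest and KO LEC 3 the lowest library of its group for both Prkcdbp and Ehd2. KO LEC 3 was also the lowest for Cav1 and Ptrf.

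Plvap was 62, 133 and 142 CPM in KO LECs, against 8.51 to 132 CPM in WT LECs. The log2 fold change of 0.25 (SE 0.65) turned to -0.15 without WT LEC 3. Since diaphragms with PLVAP are known from blood vessels, blood endothelial markers are given beside it. Flt1, the VEGF receptor of blood endothelium, had means of 9.46 CPM in WT and 6.15 CPM in KO LECs but 54.3 CPM in WT and 108 CPM in KO IntSCs, and Esm1, Sox17 and Vwf, at most 13, 13.7 and 10.5 CPM in WT LECs, had no read in any KO LEC library. Other genes of the list were far higher in LECs than in IntSCs. Emcn averaged 504 CPM in WT LECs and 8.38 CPM in WT IntSCs, Gpihbp1 409 and 1.09 CPM, and Cd300lg 214 and 14.4 CPM. In the test between WT LECs and WT IntSCs 5 of the 13 genes were called higher and 2 lower. The list of 13 blood endothelial markers summed to 13292 to 17539 CPM in WT LECs and 11103 to 15289 CPM in KO LECs, most of it Aqp1 (13120 CPM on average in WT LECs), and to 1126 to 2808 CPM in IntSCs, most of it Cd34. Aqp1 is also known to reside in caveolae.

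In the fit of all 4 groups, the difference between the genotype effects of the cell types (IntSCs minus LECs) was called for 0 of 7 genes, against 1.7% of the 14015 genes tested. Sdpr had the largest such difference of the 7, 0.87 (SE 0.29) in log2, with its KO mean above the WT mean in IntSCs and below it in LECs. It was 0.78 to 0.98 with 1 library left out. Cav1 followed with 0.78 (SE 0.47), which was 0.40 without KO IntSC 3. The other 5 genes lay between -0.33 and 0.43, where the median over all genes was 0.24. Of these, Prkcdbp (-0.70 to 0.40), Ehd2 (-0.36 to 0.60) and Plvap (-0.36 to 0.31) changed sign with 1 library left out. The lower ends were without KO LEC 3 for Prkcdbp and Ehd2 and without KO LEC 1 for Plvap, and the upper ends without KO LEC 2 for Prkcdbp and Ehd2 and without WT LEC 3 for Plvap. On simulated counts the test of this difference recovered 18% of genes given a log2 fold change of 2.

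The genes varied unequally among libraries of one group. In WT LECs the highest library was 1.19 times the lowest for Ptrf, 1.23 times for Ehd2, 1.44 times for Sdpr and 1.46 times for Cav2, but 15.6 times for Plvap. In KO LECs the same ratio was 1.27 for Sdpr, 4.49 for Prkcdbp and 5.15 for Ehd2. In WT IntSCs it ran from 1.52 for Prkcdbp to 2.73 for Cav2.

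Genes with the pattern most like Cav1 were sought among 6722 genes with a mean of at least 20 CPM, by the root mean square difference of log2(CPM + 1) over the 18 libraries after centring each gene on its mean. This is a description, and the gap between the cell types enters it. Cd9, a tetraspanin, was nearest with a difference of 0.441, followed by Timp3, a metalloproteinase inhibitor bound to matrix (0.474), Cav2 (0.495), Ndrg1 (0.525) and the chemokine receptor Ackr3 (0.527), where the median gene was at 1.91. Thus the genomic neighbour Cav2 ranked 3 of all genes for likeness to Cav1. Sdpr ranked 69 (0.787), Prkcdbp 1266, Ptrf 2776, Ehd2 3142 and Plvap 5221.

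For Plvap the 5 nearest genes were Irgq (0.474), Plekhm2 (0.495), Kmt2c (0.557), Cnot1 (0.608) and Armc5 (0.612), with a median over all genes of 1.33. All 5 had their lowest level in WT LEC 3, the library with the least Plvap. Without that library 0 of the 5 stayed among the nearest 5, which were then Grk5, Ociad1, Irf1, Cdk9 and Pbx3. Among genes at 100 CPM or more on average in the other WT LEC libraries, 5 of 1891 lay below 10% of that average in WT LEC 3, compared with 1 to 3 in the other WT LEC libraries and 8 to 13 in KO LECs.

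**Figure D4:**
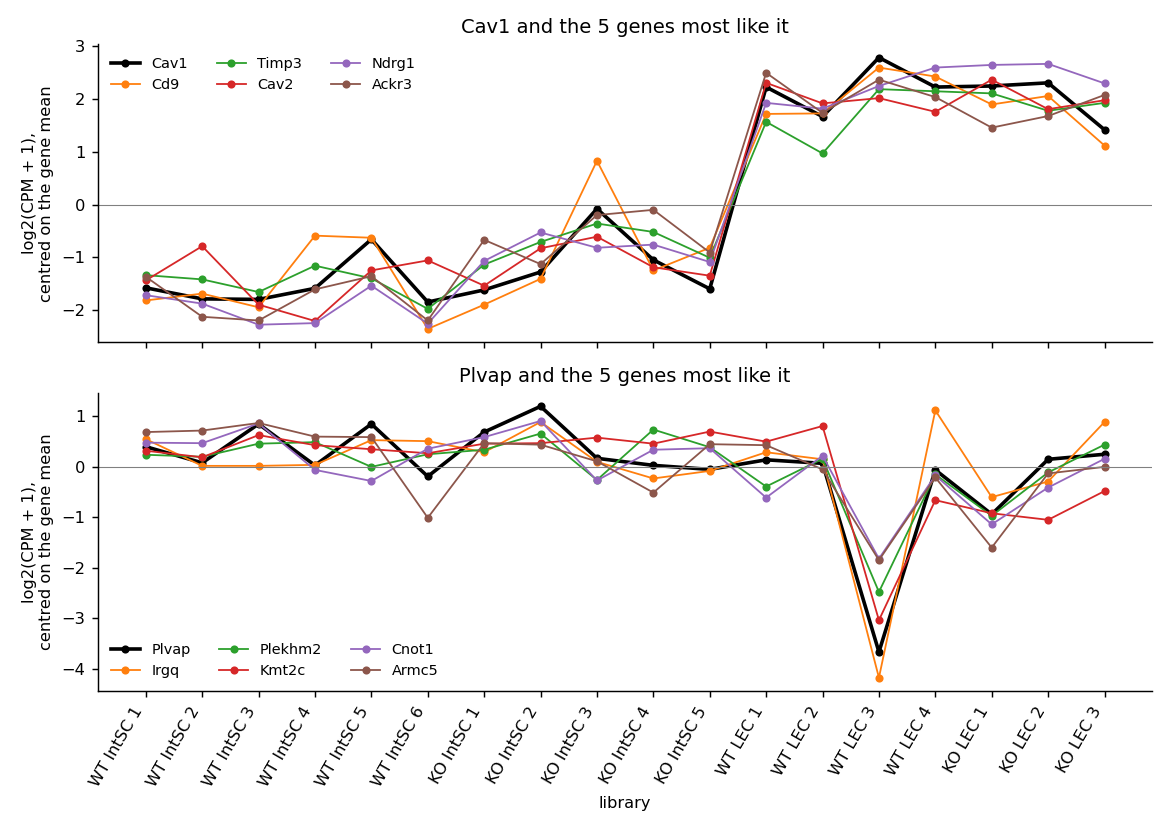
Profiles over the 18 libraries of Cav1 (upper panel) and Plvap (lower panel) in black, each with the 5 genes most like it, as log2(CPM + 1) centred on the mean of each gene. The Cav1 set steps up between IntSCs and LECs, and the Plvap set shares a low point in WT LEC 3.

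The genes flanking these loci were compared between the cell types because Cav1 and Cav2 adjoin. Of the 12 nearest tested genes, matched by symbol on either side, 3 were called, 1 higher and 2 lower in LECs, where 22.6% of all genes were called. Tes was higher in WT LECs (log2 fold change 0.91, SE 0.29, edgeR adjusted p = 0.0333), and Met, on the other side of Cav1 and Cav2, was not called (1.81, SE 1.34, adjusted p = 0.395). Beside Ptrf, Stat3 was lower in WT LECs (-1.20, SE 0.21, adjusted p = 6.61e-04) and Atp6v0a1 was not called (0.95, SE 0.39, adjusted p = 0.0961). The third call was Pla2g4c, 2586289 bases from Ehd2, with a mean of 4.51 CPM in WT IntSCs and no read in WT LECs (adjusted p = 0.0177). The flanking genes of Sdpr, Prkcdbp and Plvap and the other one of Ehd2 were not called, with log2 fold changes of -1.73 to 0.52. The mean levels of Tes were 77.7 CPM in WT LECs and 41.2 CPM in WT IntSCs, far closer together than those of Cav1 or Cav2.

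Related genes were taken as 3 lists, chosen with earlier results of these data known, so nothing is read from their counts of calls. The first holds 14 proteins that help to assemble caveolae or shape their membrane, the next 12 proteins known to reside or signal in caveolae, and the last 14 clathrin coat and adaptor genes, the other main endocytic route. The muscle forms of the coat were nearly absent. Cav3 was at most 3.49 CPM and Murc, the muscle cavin, at most 1.83 CPM in IntSCs, and neither had a read in any LEC library.

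Between WT LECs and WT IntSCs, 3 of 11 tested assembly partners were higher in LECs and 1 was lower, against 10.3% and 12.3% of all genes, with a median log2 fold change of 0.74. Ehd1, a relative of Ehd2 in endosomal recycling, was higher by 2.84 (SE 0.25, edgeR adjusted p = 8.95e-07), with 310 to 573 CPM in WT LECs and 46.6 to 94.3 CPM in WT IntSCs. Pacsin3, which bends membranes at the caveolar neck, was higher by 1.35 (SE 0.27, adjusted p = 0.00205), spanning 113 to 160 CPM against 33.8 to 71.9 CPM. The flotillins Flot1 and Flot2 were not called. Both Ehd1 and Pacsin3 were called under all alternatives and with any 1 library left out.

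Of 11 tested caveola residents, 3 were higher and 2 lower in WT LECs, against 10.3% and 12.3% of all genes, with a median log2 fold change of -0.33 where that of all genes was -0.04. Aqp1, a water channel, had the largest difference, 8.12 (SE 0.41, edgeR adjusted p = 7.85e-09), with 11787 to 16230 CPM in WT LECs and 18.6 to 80.4 CPM in WT IntSCs. Nos3, the endothelial nitric oxide synthase that caveolin-1 binds, was higher by 1.97 (SE 0.41, adjusted p = 0.00242). Prkcd, the kinase bound by cavin-3, was lower, with 4.78 to 18.7 CPM in WT IntSCs and 0 to 0.666 CPM in WT LECs (adjusted p = 0.00898).

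Of 14 clathrin genes, 5 were higher in WT LECs and 0 lower, with a median of 0.57, while over all genes 10.3% were higher. Dab2, a cargo adaptor, was higher by 1.83 (SE 0.29, edgeR adjusted p = 2.38e-04), Ap2m1, the cargo-binding subunit of the AP2 adaptor, by 1.22 (SE 0.30, adjusted p = 0.00887) and Fcho2, which starts clathrin pits, by 1.91 (SE 0.49, adjusted p = 0.0111). The log2 fold changes of Dab2, Ap2m1 and Fcho2 were smaller than those of Cav1, Cav2 and Sdpr. They were larger than those of Prkcdbp (0.61), Ptrf (0.09), Ehd2 (-0.08) and Plvap (-0.73). The caveola genes were chosen with their levels known, so nothing is read from this order.

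**Figure D5:**
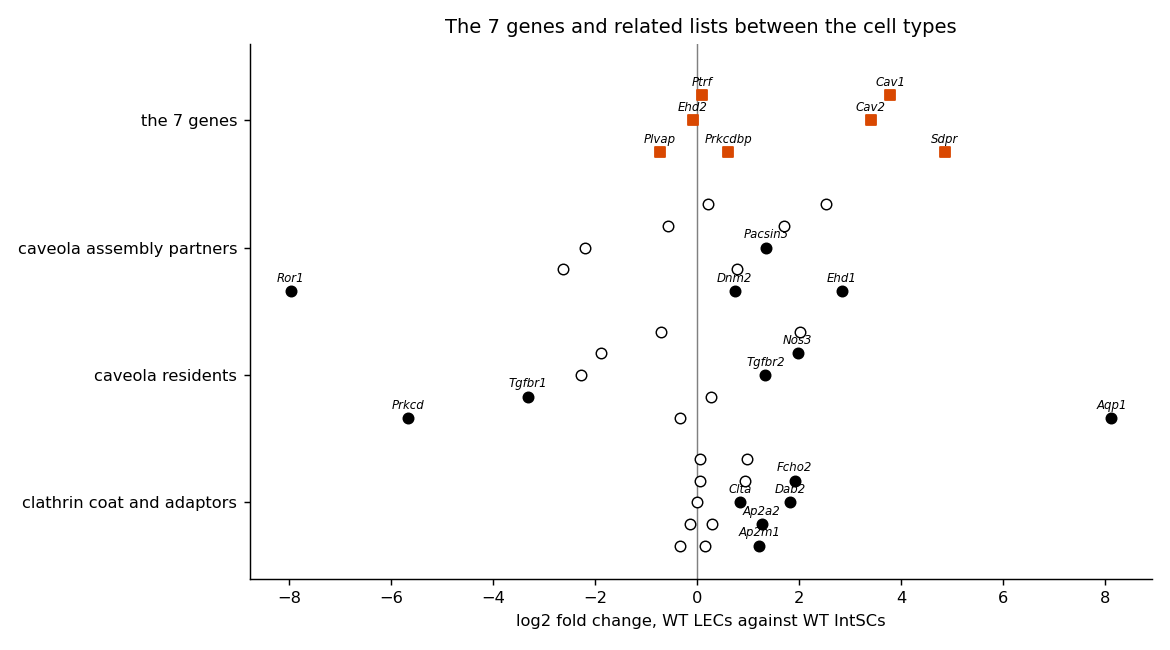
Fitted log2 fold change between WT LECs and WT IntSCs of the 7 genes (squares) and of the tested members of 3 related lists (circles; filled and named where the edgeR adjusted p was under 0.05), each row spread vertically for legibility only. Cav1, Cav2, Sdpr and Aqp1 lie to the right of 3; Ror1, with no read in any WT LEC library, is drawn at a fitted value that depends on the prior count.

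Between KO and WT IntSCs, 1 of 11 assembly partners and 1 of 12 residents were higher, against 0.853% of all genes. Of 14 clathrin genes, 0 were called by edgeR or limma-voom and 2 by DESeq2. By edgeR, 2 assembly partners, 6 residents and 2 clathrin genes had an unadjusted p under 0.05, as had 1219 of all 12421 genes tested. Ehd3, a relative of Ehd2, was higher by 0.95 (SE 0.23, edgeR adjusted p = 0.0391), with 128 to 183 CPM in KO and 48.6 to 120 CPM in WT IntSCs. Insr, the insulin receptor, was higher by 1.0 (SE 0.25, adjusted p = 0.0447), with 67.3 to 94.3 CPM in KO and 22.9 to 59 CPM in WT. The ranges did not overlap for either gene, but both calls were near the threshold. With all 4 groups in 1 fit the adjusted p was 0.289 for Ehd3 and 0.686 for Insr, and for Insr it was 0.0508 with upper-quartile factors. Leaving out 1 library at a time gave adjusted p of 0.0107 to 0.128 for Ehd3, called only without WT IntSC 2 or WT IntSC 3, and 0.0321 to 0.143 for Insr, called only without WT IntSC 1.

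Among the 12 residents 11 had a log2 fold change above 0 in KO IntSCs, with a median of 0.64 where that of all genes was 0.00. Over the same comparison 9 of 10 markers of all endothelium were above 0, with a median of 0.86 and 0 called, and 1 of 9 fibroblast and stromal markers was above 0, with a median of -0.54 and 2 called lower. Of 8 smooth muscle markers 7 were above 0, with a median of 0.37 and 0 called, and of 8 epithelial and Paneth markers 7 were above 0, with a median of 2.84 and 3 called higher. Summed epithelial and Paneth markers were 0 to 118 CPM in WT and 52.7 to 191 CPM in KO IntSCs. Their part in the values of the residents was not tested. In the LECs of KO mice 0 of 8 assembly partners, 0 of 10 residents and 0 of 14 clathrin genes were called by edgeR, limma-voom or DESeq2, and 0 of each list had an unadjusted p under 0.05. Over all 10639 genes, edgeR called 0.0658%, and 837 genes had an unadjusted p under 0.05. In the test of the difference between the genotype effects 0 of 13, 0 of 12 and 0 of 14 were called by edgeR or limma-voom, with 3, 2 and 1 at an unadjusted p under 0.05 and 2, 0 and 0 called by DESeq2. Over all 14015 genes, 2217 had an unadjusted p under 0.05, and edgeR called 1.7%. With simulated log2 fold changes of 2, edgeR recovered 30.5% in the LEC comparison and 18% in the test of the difference. Missing calls there do not show that the genes were unchanged.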

How the data were processed

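Cells were sorted by FACS after depletion of leukocytes and epithelium (and of CD31+ cells for IntSCs), and libraries were made with the Lexogen QuantSeq kit. The deposited values are whole-number counts per gene, which the authors made from reads on mm10. The submitters' processing notes name Bowtie2 and edgeR, and the methods of the study name TopHat and Cufflinks; the counting program, its use of strand and the annotation are not given in the sources used here. Each table held 23282 rows, and 35 symbols on several rows were summed. Rn45s, ribosomal RNA, took 7.02 to 24.4% of the counts and stayed in the totals.

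Groups came from the sample titles and genotypes. Each comparison was fitted with edgeR 4.0.16 in R 4.3.3 (TMM factors, filterByExpr, robust quasi-likelihood test, two-sided), with Benjamini-Hochberg adjustment over all genes tested and a threshold of 0.05. Fits of the genotype and cell type comparisons held only the groups compared. The fits were tested on simulated counts, with 200 genes above 20 CPM given a log2 fold change of 2. Calls recovered 89% of them for KO against WT IntSCs and 49% for WT LECs against WT IntSCs. For KO against WT LECs they recovered 30.5%, and for the difference between the genotype effects 18%. Alternatives were DESeq2 1.42.0, limma-voom (limma 3.58.1), other factors, other filters (at least 1 read, or a mean count of 10), counts without Rn45s, all 4 groups in 1 fit, a replicate block and each library left out. The p-values measure the spread between these libraries, and counting error alone sets the floor of 3 counts.

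The 7 genes and the lists were chosen with earlier results of these data known. Related genes were named as up to 8 with the smallest adjusted p under 0.05 in a comparison, and flanking genes for their position. The search for genes like Plvap without WT LEC 3 was added after seeing the data. Promoters came from RefSeq (GRCm38.p6).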

Additional observations from a re-analysis of the deposited data

Results flagged for a closer look

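The levels of the 7 genes, the marker sums and the total counts were examined in each group except KO LECs. This gave 54 sets of 4 to 6 libraries. In 10 of them, 1 library's gap to its nearest neighbour took up most of the range of the group. Chance gives about 1 in 20, or 2.7 of 54. The sets share libraries and are not independent, so nothing is read from the difference. In 3 of the 10 sets the value was that of a caveola gene. Cav1 was 68.7 CPM in WT IntSC 5, with the others at 29.6 to 36 CPM, and 103 CPM in KO IntSC 3, with the others at 35 to 52.2 CPM. Plvap was 8.51 CPM in WT LEC 3, with the others at 114 to 132 CPM.

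The remaining ones were marker sums and a depth. KO IntSC 3 held the highest sum of adipocyte markers (477 CPM, others 209 to 259 CPM) and of enteric glia markers (14.4 CPM, others 0.653 to 4.26 CPM), and it was the library with the most Cav1 among KO IntSCs. WT LEC 1 held 2235 CPM of stromal markers (others 639 to 682 CPM), and WT LEC 4 held 17539 CPM of blood endothelial markers (others 13292 to 13782 CPM). Most of that blood endothelial sum was Aqp1, with 16230 CPM in WT LEC 4 and 11787 to 12469 CPM in the other WT LECs. WT IntSC 6 held 118 CPM of epithelial and Paneth markers (others 0 to 18.7 CPM), and KO IntSC 1 held 28.1 CPM of leukocyte markers (others 2.59 to 9.04 CPM). The total count of WT LEC 2 was 7464241, with the others at 10374749 to 10549233. The cause was not tested in any of these.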

How the results depend on the processing

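Of 567 fitted values of the 7 genes under an alternative, 565 moved by less than 1 SD between libraries; the exceptions were differences between the genotype effects, Ptrf at 0.83 with the replicate block and Prkcdbp at 0.40 without KO LEC 2. Of 182 group means, 6 moved by more, all with Rn45s left out of the totals, which raises every level. The SD between libraries is not the SE of a fitted value, and some fitted values moved by more than their SE. Cav1 between KO and WT IntSCs went from 0.48 (SE 0.32) to 0.11 without KO IntSC 3. Plvap between WT LECs and WT IntSCs went from -0.73 (SE 0.52) to -1.34 with limma-voom. Counts of called genes over the whole table moved more. For KO against WT IntSCs the 183 calls became 376 with DESeq2, 27 with all 4 groups in 1 fit and 99 to 186 with 1 library left out. For KO against WT LECs the 7 calls became 309 with DESeq2, 12 with limma-voom, 32 with no filter beyond 1 read, 20 with a mean count of at least 10, 538 with all 4 groups in 1 fit, 3 with the replicate block and 0 to 16 with 1 library left out (0 without WT LEC 3). For WT LECs against WT IntSCs the 2763 calls became 1596 with the replicate block and 2233 to 2891 with 1 library left out. For the difference between genotype effects the 238 calls became 1023 with DESeq2, 143 with limma-voom, 16 with the replicate block and 161 to 461 with 1 library left out. The cause was not tested.

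The labels do not say whether replicate numbers pair the libraries, and the data gave only weak signs of it. Deviations of same-numbered libraries from their group means correlated at 0.0204 on average between WT and KO IntSCs, -0.00394 between WT and KO LECs, 0.00347 between KO IntSCs and KO LECs and 0.036 between WT IntSCs and WT LECs, and in the last of these each of 4 pairs correlated best with its own number. With the replicate block the adjusted p was 0.0715 for Ehd3 and 0.079 for Insr between KO and WT IntSCs, and 0.0527 for Nos3, 0.0857 for Prkcd, 0.0961 for Ap2m1 and 0.0505 for Fcho2 between WT LECs and WT IntSCs; the other named related genes stayed called.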
